A study of Mus musculus with 16 samples.

Results

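Hal codes for histidine ammonia-lyase (histidase), and it was 1 of the 11710 genes in a count table of mouse rotator cuff muscle. It was picked by its symbol, because its CPM (counts of the gene scaled to a library of 1000000) were near 0 in one mouse strain and clear in the other, with or without surgery. The strain difference is therefore what chose the gene: its values are given below as a description, without a test, and only the effect of surgery within the expressing strain and the behaviour of other genes were tested.

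RNA sequencing covered 16 samples in 4 groups of 4: C57BL/6J (BL6) unoperated controls, BL6 after supraspinatus tenectomy and denervation, MRL/MpJ (MRL) unoperated controls, and MRL after the same operation. Tenectomy removes the tendon that anchors the muscle, and denervation cuts its nerve supply. The sample labels name the supraspinatus and the series design names the infraspinatus. Age, sex, pooling of animals and the time from surgery to collection are not given in the sources used here. Nothing in the labels says whether replicates came from separate animals, so p-values measure the spread between these samples only.

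Histidine ammonia-lyase removes ammonia from the amino acid histidine and leaves trans-urocanate, the first and committed step of histidine breakdown. Urocanate hydratase (Uroc1), imidazolonepropionase (Amdhd1) and formimidoyltransferase cyclodeaminase (Ftcd) then carry the product to glutamate and pass a one-carbon unit to folate. The enzyme is best known from liver, which completes this route, and from epidermis, where urocanate accumulates and absorbs ultraviolet light; inherited loss of it causes histidinemia. Skeletal muscle is better known for storing histidine in the dipeptides carnosine and anserine than for breaking it down.

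Hal (ENSMUSG00000020017) lies on the plus strand of chromosome 10 at 93488768 to 93519304 (mm10, GENCODE M21), and no other annotated gene overlaps it. Its coding transcript, Hal-202, has 20 exons and 5319 bases, of which 1971 are coding. Aligned to all annotated transcripts, Hal-202 matched 7 other genes over at most 118 bases, all outside the coding part, and no near-identical copy was found. The first stretch below is coding sequence from exon 9 (63 bases, chr10:93494625-93494687). Its capitals mark codons 253 to 255 of 657, the single place where codons for alanine, serine and glycine stand in a row; in this enzyme family such a triad closes into the MIO group, the electrophile of the reaction. The next is the 250 bases before the annotated start (RefSeq, GRCm38.p6, chr10:93488518-93488767, plus strand), shown because it borders the transcript whose level separated the strains. Both are reference sequence of BL6, the strain with almost no Hal mRNA; MRL sequence was not analysed here.

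Hal coding stretch: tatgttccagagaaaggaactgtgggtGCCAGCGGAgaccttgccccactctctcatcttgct
Hal upstream: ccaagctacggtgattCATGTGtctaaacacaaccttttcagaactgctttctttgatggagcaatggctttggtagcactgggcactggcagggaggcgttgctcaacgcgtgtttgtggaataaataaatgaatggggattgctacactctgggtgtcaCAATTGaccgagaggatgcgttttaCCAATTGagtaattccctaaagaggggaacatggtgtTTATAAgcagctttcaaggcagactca

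Capitals in the upstream sequence mark matches to 3 short motifs searched on both strands. TATAA, the core of the TATA box, began 26 bases before the start and overlapped its own match on the other strand at base 27. CCAAT began at base 64, and CANNTG, the E-box bound by myogenic and many other factors, began at bases 234, 89 and 63, the last overlapping the CCAAT match. Of 32851 mouse windows of the same kind, 22.8% held TATAA, 33.8% CCAAT and 66.2% CANNTG. These matches describe letters only and are not evidence of binding.

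In BL6 the gene was hardly detected. Unoperated BL6 replicates 1 to 4 held 1, 4, 3 and 2 Hal counts, and operated BL6 replicates held 1, 2, 2 and 6. Total counts ran from 24323862 to 43552964 per sample. A level of 3 counts, taken as the smallest that can be told from 0, equals 0.0689 to 0.123 CPM by total counts. With the normalised library sizes behind the Hal CPM it equals 0.0718 to 0.122 CPM. In each BL6 group 3 of 4 libraries sat at or under 3 counts. The group means were 0.0648 ± 0.0288 CPM unoperated and 0.0900 ± 0.0561 CPM operated (SD, n = 4), with overlapping ranges. An effect of surgery on Hal in BL6 was not detectable at this depth: the summed counts were 10 and 11, and the ratio of operated to unoperated was 1.45 with an exact 95% counting interval of 0.559 to 3.81, which covers counting error only.

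In MRL every library held at least 616 Hal counts. Unoperated MRL replicates 1 to 4 stood at 26.0, 19.7, 19.9 and 24.0 CPM, and operated MRL replicates at 26.1, 29.9, 50.7 and 42.2 CPM. The lowest MRL library was thus more than 100 times above the highest BL6 library, operated replicate 4, at 0.171 CPM. The plot of Hal in every sample shows both strains on one log axis.

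**Figure D1:**
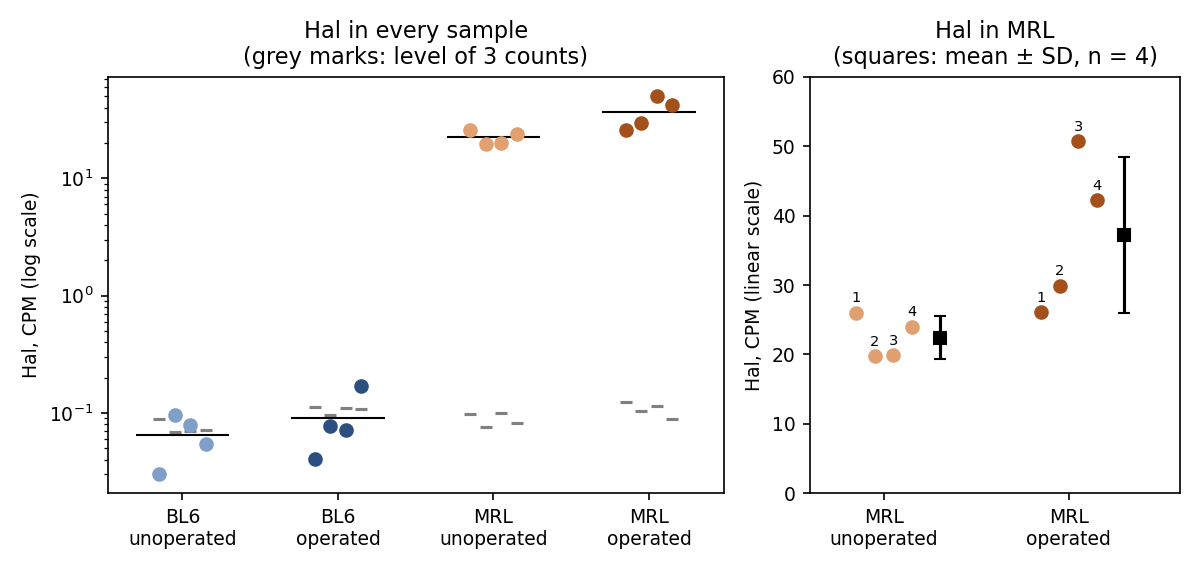
Hal level in CPM in each of the 16 samples, by group. Left, log axis, with the group means as lines and grey marks at the level of 3 counts in each library, scaled by total counts. The points use normalised library sizes, so they and the marks are not on exactly the same scale. The 8 BL6 points lie between 0.03 and 0.171 CPM, around those marks. Right, linear axis, the 8 MRL samples with replicate numbers and mean ± SD; the operated samples run from 26.1 to 50.7 CPM and the unoperated from 19.7 to 26.0.

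As a description of the choice, the fitted log2 ratio of MRL to BL6 was 8.31 (SE 0.33) among unoperated and 8.54 (SE 0.32) among operated samples. From summed counts, MRL was 335-fold higher unoperated (95% counting interval 182 to 699) and 392-fold higher operated (219 to 786). Without operated BL6 replicate 4, which held 6 of the 11 operated BL6 counts, the operated log2 ratio was 9.11. The authors' deposited table gives log2 fold changes of 8.21 and 8.68 for these comparisons.

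Per kb of merged exon, the scale on which genes of unlike length can be compared, Hal stood at 4.04 ± 0.562 CPM in unoperated MRL and 6.71 ± 2.03 in operated MRL (SD, n = 4). This placed its level above 50.6% of 11707 genes in unoperated MRL, at the middle of the table, and above 64.8% in operated MRL. In unoperated BL6 the level was 0.0117 and only 0.0513% of genes were lower. The histogram of levels shows the gene in the extreme low tail in BL6 and near the median in MRL. The table itself keeps no gene with a mean under 1.05 CPM over all samples, so Hal is in it only through MRL.

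**Figure D2:**
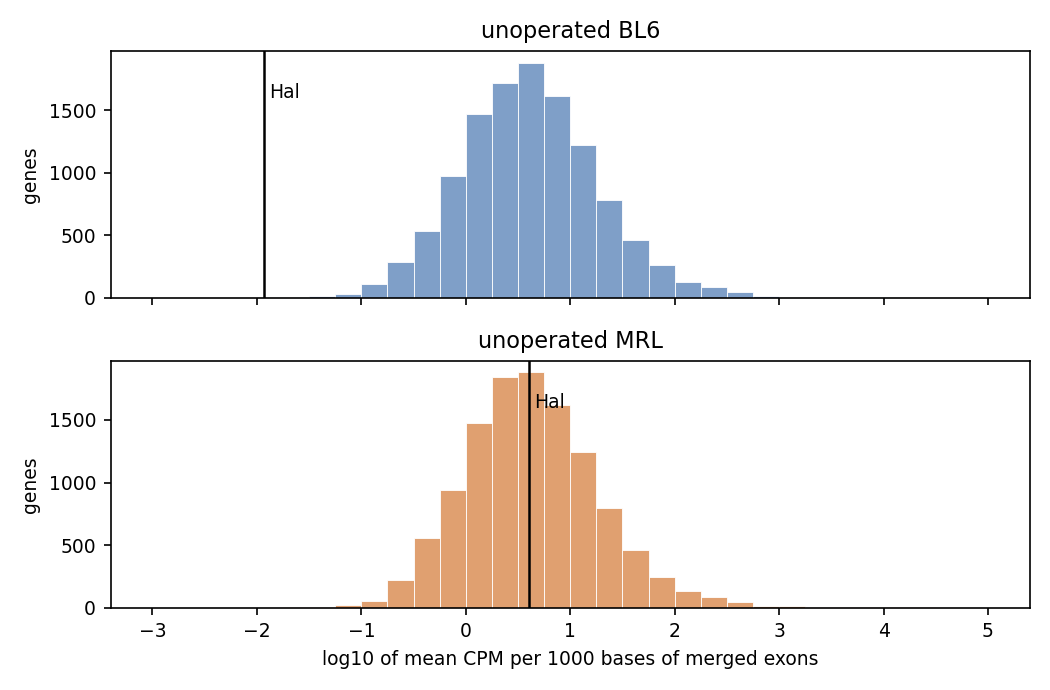
Number of genes (vertical axis) by mean level in CPM per kb of merged exons (horizontal axis, log10) in unoperated BL6 and unoperated MRL. The vertical line marks Hal, at 0.0117 in BL6 and 4.04 in MRL, where the median gene stood at 3.93 and 3.96.

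Hal rose with surgery in MRL. The mean went from 22.4 ± 3.12 to 37.2 ± 11.3 CPM (SD, n = 4), and all 4 operated samples lay above all 4 unoperated ones. The rise rested most on operated replicates 3 and 4; operated replicate 1, at 26.1 CPM, exceeded unoperated replicate 1, at 26.0 CPM, only just. The log2 fold change was 0.73 (SE 0.19), a fold of 1.66, called by edgeR's quasi-likelihood test at a Benjamini-Hochberg adjusted p (edgeR adjusted p below) of 0.00829 over 11709 genes. The two-sided exact permutation test of the CPM values gave p = 0.0286, the smallest that 4 against 4 allows. In that comparison 45.0% of all genes were called at an adjusted p under 0.05 (22.3% higher and 22.7% lower), and 17.0% had every operated sample above every unoperated one, so a rise of this kind was common in the operated muscle. Hal ranked 1672 of 11709 by the size of its rise.

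The call held in every alternative run. Leaving out single MRL samples moved the log2 fold change between 0.55, without operated replicate 3, and 0.87, without operated replicate 1. With total counts in place of normalised library sizes the groups overlapped, since unoperated replicate 1 stood at 27.5 and operated replicate 1 at 26.5 CPM, but the gene was still called. On the first principal component of all genes unoperated MRL replicate 1 stood apart, at -7.49 where the other unoperated MRL samples lay between -44.9 and -38.7; without it the log2 fold change of Hal was 0.82 (edgeR adjusted p 0.00819). In the authors' deposited table the log2 fold change is 0.84 with a false discovery rate of 0.00242. Whether surgery acts on Hal differently in BL6 was not tested, since its BL6 counts are too low to give an effect.

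**Figure D3:**
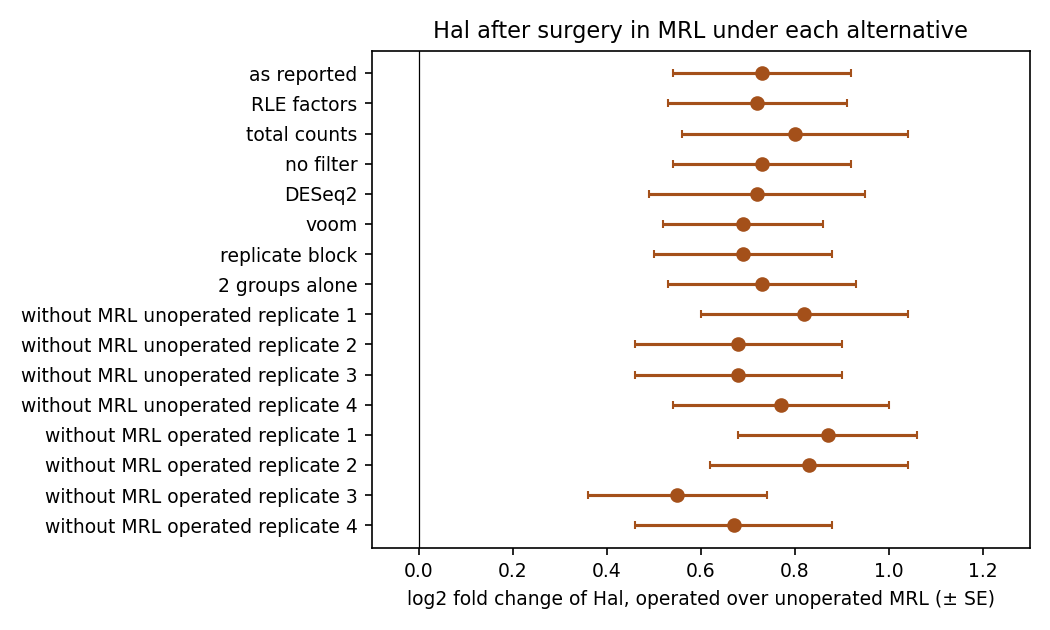
Log2 fold change of Hal, operated over unoperated MRL, with its SE (bars), as reported and under each alternative. All 16 points lie between 0.55 and 0.87, to the right of 0.

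Cell type markers were summed per sample to show what else moved. The muscle fibre list, which includes skeletal actin (Acta1) and muscle creatine kinase (Ckm), was found in full (10 of 10) at 55600 to 176000 CPM per sample, as the tissue label says. Of the 12 keratinocyte genes 3 were in the table (Krt10, Perp and Trp63), with sums of 13.7 to 18.6 CPM in unoperated BL6 and 13.3 to 16.7 CPM in unoperated MRL. Krt5, Krt14, Krt1 and 6 others of that list were not found in the table. Of the 10 hepatocyte genes only Cyp2e1 was in the table, at 3.54 to 8.23 CPM in unoperated BL6 and 5.39 to 11.9 CPM in unoperated MRL. Of the 3 keratinocyte, 1 hepatocyte, 2 neutrophil, 8 macrophage and 4 mast cell genes in the table, edgeR called 0 between the strains, where 10.4% of all genes were called unoperated and 12.9% operated; so few genes at these shares do not show that the strains were alike.

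With surgery in MRL, markers of several cell types were called higher, to be read against the 22.3% of all genes called higher and 22.7% lower. Among markers of the cells best known for Hal, 2 of the 3 keratinocyte genes found (Perp and Trp63) were called higher. The sums of all 3 were 18.8 to 26.3 CPM in operated MRL, of which Trp63 alone gave 11.9 to 22.2 CPM. Cyp2e1, the only hepatocyte gene found, was called higher too, at 9.12 to 26.2 CPM. With most genes of both lists not found, these calls do not show that such cells increased. With surgery in BL6, where Hal was hardly detected, Perp and Cyp2e1 were also called higher, with log2 fold changes of 1.02 and 1.14. Trp63 was not called there, at -0.01. In the neutrophil, macrophage and mast cell lists 1 gene each was called higher, of 2, 8 and 4, counts too small or too near that share to set these lists apart, and 3 of 10 muscle fibre genes were called lower. All 7 adipocyte genes in the table were called higher, and their sum went from 276 to 401 CPM unoperated to 1400 to 2020 CPM operated. Endothelial genes were higher in 7 of 8, with sums of 289 to 414 and 388 to 969 CPM, and Schwann cell genes in 6 of 8, with sums of 82.1 to 148 and 152 to 395 CPM. The fibro-adipogenic list, markers of the connective tissue cells of muscle, was called higher in 2 of 8, near the share of all genes. Its sum in operated MRL replicates 1 to 4 was 2610, 3020, 4910 and 4560 CPM, high in replicates 3 and 4, as Hal was. In unoperated MRL it was 3560 CPM in replicate 1, the sample with the most Hal of that group, and 2390 to 2480 CPM in the others. The macrophage sum was 85.3, 77.6, 141 and 150 CPM in operated MRL replicates 1 to 4, and highest unoperated in replicate 1, at 195 CPM. Neutrophil and mast cell sums had the same high samples, and the keratinocyte sum did among operated samples only. No other list did so in operated MRL. In BL6, where Hal was hardly detected, the fibro-adipogenic sum was 1310 to 2880 CPM unoperated and 1900 to 7380 CPM operated. Operated BL6 macrophage sums were 49.4 to 317 CPM and mast cell sums 6.59 to 49.6 CPM. With surgery in BL6, 7 of 7 adipocyte, 6 of 8 endothelial, 8 of 8 Schwann and 4 of 8 fibro-adipogenic genes were called higher. So were 5 of 8 macrophage, 2 of 2 neutrophil and 4 of 4 mast cell genes, against 35.1% of all genes. There 5 of 10 muscle fibre genes were called lower, against 32.8%. The part of any of these cells in the Hal rise was not tested. In bulk muscle, more cells of a type and more RNA per cell cannot be told apart.

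The genes beside Hal did not share its strain difference. Lta4h, which codes for leukotriene A4 hydrolase and ends 3.89 kb upstream, differed in the opposite direction. It stood at 31.1 ± 1.91 CPM in unoperated BL6 and 23.0 ± 1.74 CPM in unoperated MRL (SD, n = 4) (log2 fold change -0.43, edgeR adjusted p 0.00347). Scaled by total counts it was -0.29 and not called (edgeR adjusted p 0.162). After surgery the difference was -0.66 (edgeR adjusted p 7.82e-05). Amdhd1, which codes for the third enzyme of the histidine route, lies 4.03 kb downstream on the opposite strand and was not in the count table. The next tested gene downstream, Snrpf, a spliceosome component, had log2 fold changes of 0.16 and -0.28 and was not called in either comparison; without unoperated MRL replicate 1 the first was -0.00.

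Around Hal, the 10 nearest tested genes on each side spanned 5.05 Mb. Among these 20, log2 fold changes of MRL over BL6 ran from -0.90 to 1.23 unoperated and from -0.98 to 1.16 operated. Unoperated, 2 were called higher (Fgd6 and Cep83os) and 4 lower (Nedd1, Lta4h, Ndufa12 and Tmcc3), where 10.4% of all genes were called (5.02% higher and 5.36% lower). Fgd6, Ndufa12 and Tmcc3 lost their calls without unoperated BL6 replicate 2, 3 or 4 or unoperated MRL replicate 1 or 3, which reduced the 6 calls to 3. Those runs called 821 to 1058 of all genes, in place of 1216. Ndufa12 also lost its call without any other unoperated sample and with RLE factors. Tmcc3 lost its call without any unoperated sample but BL6 replicate 1, and with RLE factors, voom and the replicate block. Scaled by total counts, which dropped both, 3 neighbours were higher and 1 lower (742 and 313 of all genes). Operated, 3 were called higher (Uhrf1bp1l, Cep83os and Cep83) and 2 lower (Lta4h and Ndufa12), against 12.9% of all genes (7.60% higher and 5.27% lower). When only those groups were fitted 2 of these 5 calls held, and over all genes 575 were called in place of 1507. Cep83os is named as the opposite-strand partner of Cep83, and since the use of strand in counting is not stated, their counts may not be separate.

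**Figure D4:**
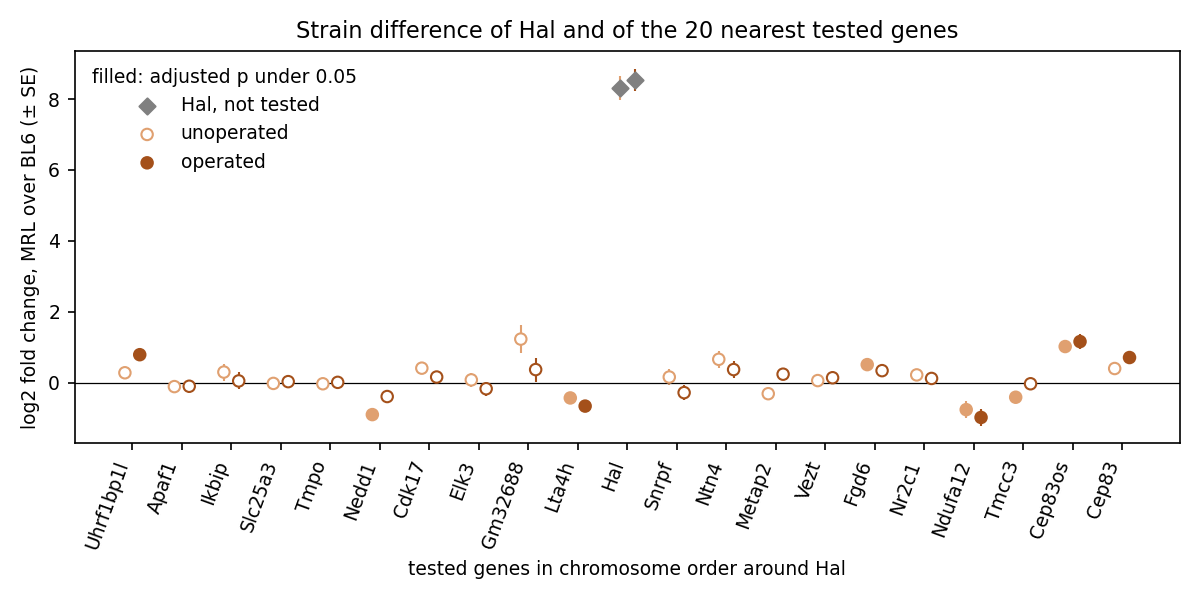
Log2 fold change of MRL over BL6 (± SE) for Hal (grey diamonds, not tested) and the 20 nearest tested genes in chromosome order, unoperated and operated; filled circles were called at an adjusted p under 0.05. Hal stands at 8.31 and 8.54, and its neighbours between -0.98 and 1.23.

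Ranked by fitted log2 fold change of MRL over BL6, Hal was number 12 of 11709 in both strain comparisons. Of the 12 genes down to Hal among unoperated samples, 5 were protein-coding and 7 pseudogenes; among operated samples, 7 were protein-coding and 4 pseudogenes. Such ranks rest on BL6 counts near 0, and 2 of the 12 genes in each comparison had none in any BL6 library of that comparison. The genes just above Hal were Amd-ps4, AK157302 and Gm6916 unoperated, and Gm10260, C1rb and B4galnt2 operated. Those just below were Gm10320, AC122453.1 and AC166110.4 unoperated, and Amd-ps4, AC122453.1 and Pcna-ps2 operated.

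The 5 genes most like Hal in pattern over the 16 samples were taken by the root mean square difference of log2 CPM, each gene centred on its own mean. They were Gm15772 (0.46 log2 units), Gm4987 (0.60), AC166110.4 (0.61), AC122453.1 (0.62) and Tnxa (0.63), where the median gene was at 3.90. None is annotated as protein-coding and 4 are pseudogenes, whose counts are uncertain because reads may be shared with the parent gene. Their BL6 libraries held 0 to 12 counts, the highest in Gm15772, and their MRL libraries 122 to 1354. The choice used the MRL surgery samples too, so no test of surgery is given for these genes. Their log2 fold changes with surgery in MRL were 0.19 (Gm15772), 1.01 (Gm4987), -0.09 (AC166110.4), 0.26 (AC122453.1) and -0.0 (Tnxa). That of Hal was 0.73. Gm4987, with the largest of the 5, stood at 7.88 ± 2.01 CPM in unoperated and 15.9 ± 5.63 CPM in operated MRL (SD, n = 4).

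Genes around the pathway were read from 5 lists of 85 genes, of which 69 were in the table. Uroc1, Amdhd1 and Ftcd were not in the count table, so Hal alone stands for the breakdown route. Between strains, 4 of the 69 were called higher and 8 lower in unoperated MRL (17.4%, against 10.4% of all genes), and 5 higher and 6 lower in operated MRL (15.9%, against 12.9%). The median log2 fold changes were -0.17 and -0.09, where those of all genes were 0.01 and -0.01. Fitting only the groups compared gave 21 and 7 calls in place of 12 and 11. Calls over all genes moved likewise, to 2438 of 11700 and 575 of 11704 in place of 1216 and 1507 of 11709. Operated, DESeq2 called 5 higher and 12 lower, and total counts 7 higher and 6 lower. Over all genes DESeq2 called 1045 higher and 887 lower there, and total counts 994 higher and 383 lower.

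Of 9 enzymes that use histidine in other ways, edgeR called 0 in either strain comparison, where 10.4% and 12.9% of all genes were called, shares at which about 1 of 9 would be called. Fitting only those groups called 1 lower unoperated, and leaving out operated BL6 replicate 4 called 1 higher operated. Over all genes those runs called 1228 lower and 911 higher, respectively. Carnosine synthase (Carns1), which joins histidine to beta-alanine, stood at 70.9 ± 26.1 CPM in unoperated BL6 and 54.3 ± 8.15 CPM in unoperated MRL (SD, n = 4), with overlapping ranges (edgeR adjusted p 0.518). Per kb its level was 12 CPM in unoperated MRL, above the 4.04 of Hal. With surgery in MRL 4 of the 9 fell, against 22.7% of all genes called lower, and 2 without operated MRL replicate 3. In that run 1750 of all genes were called lower, in place of 2663. Carnmt1, which methylates carnosine to anserine, fell by 1.26 on the log2 scale, from 8.84 ± 1.19 to 3.67 ± 1.91 CPM. Setd3, the actin histidine methyltransferase, fell by 0.57, Hnmt, which inactivates histamine, by 0.56, and Mettl18, which methylates a histidine of a ribosomal protein, by 0.53. Their edgeR adjusted p lay between 0.00765 and 0.0319. Scaled by total counts Hnmt was not called, at 0.0694. Its call was also lost without unoperated MRL replicate 1, 3 or 4 or operated MRL replicate 1, 2 or 3 (edgeR adjusted p 0.0559 to 0.097). Mettl18 lost its call without unoperated MRL replicate 2 (0.0544) or operated MRL replicate 3 (0.0711). Carns1, which makes carnosine, had a log2 fold change of 0.67 (edgeR adjusted p 0.11) and was not called. Carns1 and Snrpf are named for their place in the route and on the chromosome, after their values were seen. With surgery in BL6, Carnmt1, Setd3, Hnmt and Mettl18 were also called lower, with log2 fold changes of -1.55, -0.60, -0.76 and -0.66. In BL6 32.8% of all genes were called lower.

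Among 12 carriers of histidine, other amino acids or peptides, edgeR called none higher in MRL and 3 lower in each strain comparison, against 5.02% of all genes called higher and 5.36% lower unoperated and 7.60% and 5.27% operated. Unoperated, DESeq2 and the fit of those groups alone each called 3 higher and 3 lower, and total counts called 1 higher. Over all genes DESeq2 called 832 higher and 834 lower, and those groups alone 1210 higher and 1228 lower. Total counts called 742 of all genes higher, against 588 in the main fit. Slc15a2, the peptide transporter PEPT2, stood at 7.54, 6.18, 0.211 and 11.3 CPM in unoperated BL6 replicates 1 to 4, and at 0.515 to 1.06 CPM in unoperated MRL. Unoperated BL6 replicate 3 lay below all MRL samples, so the groups overlapped. The log2 fold change was -2.88 (edgeR adjusted p 0.0259), and it lost its call with voom (adjusted p 0.461), with the replicate block (0.0578) and without any of 5 single samples (unoperated BL6 replicate 4 and each unoperated MRL replicate). Operated, the groups did not overlap (6.16% of all genes with MRL lower), at 9.59 to 53.7 CPM in BL6 and 0.711 to 1.63 CPM in MRL, and the log2 fold change was -4.42. It was called by edgeR (adjusted p 0.00151) but not by voom (adjusted p 0.0556). Slc7a8, a neutral amino acid exchanger, was lower in MRL in both comparisons, at -1.32 and -1.40. Slc43a1 was lower unoperated, at -1.11, and Slc38a3, a glutamine and histidine carrier, operated, at -0.61, a call lost when only those groups were fitted and without operated BL6 replicate 1 or operated MRL replicate 2.

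With surgery in MRL, Slc15a4, the endosomal histidine and peptide carrier, fell from 27.4 ± 4.33 to 13.8 ± 2.03 CPM (SD, n = 4) (log2 fold change -0.99, edgeR adjusted p 0.00109). Slc38a4 fell by 1.43 and Slc43a1 by 0.61, and Slc38a3 rose by 0.43. These were the only calls among the 12 carriers, 33.3% against 45.0% of all genes (22.3% higher and 22.7% lower). The edgeR adjusted p of Slc43a1 was 0.0447 and that of Slc38a3 0.0402, the latter 0.0530 with the replicate block. Slc43a1 was not called with total counts (edgeR adjusted p 0.12), voom (adjusted p 0.0784) or those groups alone (edgeR adjusted p 0.0546). It also lost its call without unoperated MRL replicate 1 (edgeR adjusted p 0.0781). Both calls were lost without unoperated MRL replicate 2 or 3 or operated MRL replicate 1 or 2, which left 2 of the 4 calls. Over all genes those runs called 3891 to 4532, against 5272 in the main fit. With surgery in BL6 all 4 carriers were called in the same direction, where 67.9% of all genes were called (35.1% higher and 32.8% lower). Their BL6 log2 fold changes were -0.49 (Slc15a4), -2.13 (Slc38a4), -1.07 (Slc43a1) and 0.85 (Slc38a3).

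The folate enzymes receive the one-carbon unit of histidine breakdown. Mthfd2, the mitochondrial methylene-tetrahydrofolate dehydrogenase, stood at 8.74, 10.5, 5.55 and 6.63 CPM in unoperated BL6 and at 27.1, 36.1, 22.8 and 26.8 CPM in unoperated MRL. The groups did not overlap, as in 12.2% of all genes with MRL higher, and the log2 fold change was 1.84 (edgeR adjusted p 0.000789). After surgery it was again 1.84, with 4.28 to 8.30 CPM in BL6 and 13.6 to 35.7 CPM in MRL, apart as in 7.41% of all genes with MRL higher. Its operated MRL replicates 1 to 4 held 30.7, 35.7, 15 and 13.6 CPM, lowest in replicates 3 and 4, where Hal was highest. Unoperated MRL showed no such order. Its replicate 3, with 19.9 CPM of Hal, held the least Mthfd2, and replicate 2, with 19.7 CPM of Hal, the most. A link between the genes was not tested. Shmt1, the cytosolic serine hydroxymethyltransferase, was higher in MRL by 1.11 unoperated and by 0.89 operated. The operated call (edgeR adjusted p 0.0449) was lost when only those groups were fitted and without any of 5 single samples (operated BL6 replicates 1, 3 and 4 and operated MRL replicates 1 and 2). Aldh1l2 was higher in operated MRL by 1.08. In all, edgeR called 2 of 13 folate enzymes unoperated and 3 operated, all higher in MRL, against 5.02% and 7.60% of all genes called higher.

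Of 24 enzymes in the amino acid breakdown list, edgeR called 5 lower and 1 higher in unoperated MRL (5.36% and 5.02% of all genes) and 3 lower and 1 higher in operated MRL (5.27% and 7.60% of all genes); the other 18 and 20 were not called. Without unoperated BL6 replicate 1 the unoperated calls were 9 lower and 1 higher, where 591 of all genes were called lower and 511 higher. Operated, total counts called 3 in each direction, DESeq2 called 7 lower and 1 higher, and without operated BL6 replicate 4 there were 7 lower and 0 higher. Over all genes those runs called 383, 887 and 706 lower and 994, 1045 and 911 higher, in that order. Pccb, a subunit of propionyl-CoA carboxylase, stood at 125 ± 18.5 CPM in unoperated BL6 and 42.1 ± 2.78 CPM in unoperated MRL (SD, n = 4) (log2 fold change -1.58, edgeR adjusted p 8.73e-07). Operated, its log2 fold change was -1.36. Aldh4a1, which makes glutamate in proline breakdown, differed by -1.45 unoperated and by -0.99 operated. Mccc2, a subunit of methylcrotonyl-CoA carboxylase in leucine breakdown, was lower unoperated, at -0.76, and Gcsh, the H protein of glycine cleavage, operated, at -0.96. The members called higher were Psat1, which belongs to serine synthesis, at 1.01 unoperated (edgeR adjusted p 0.0126, and 0.0507 without unoperated BL6 replicate 3), and Mut, methylmalonyl-CoA mutase, at 0.70 operated (edgeR adjusted p 0.0335). The call of Mut was lost with the replicate block (0.0566), when only those groups were fitted, and without operated BL6 replicate 1, 3 or 4 or operated MRL replicate 1 or 4. Among the 11 glutamate and ammonia enzymes, edgeR called 1 between unoperated strains (9.09%, against 10.4% of all genes). This was Asns, asparagine synthetase, higher in MRL by 1.71 on the log2 scale. Operated, Asns differed by 0.64 and was not called (edgeR adjusted p 0.0879).

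**Figure D5:**
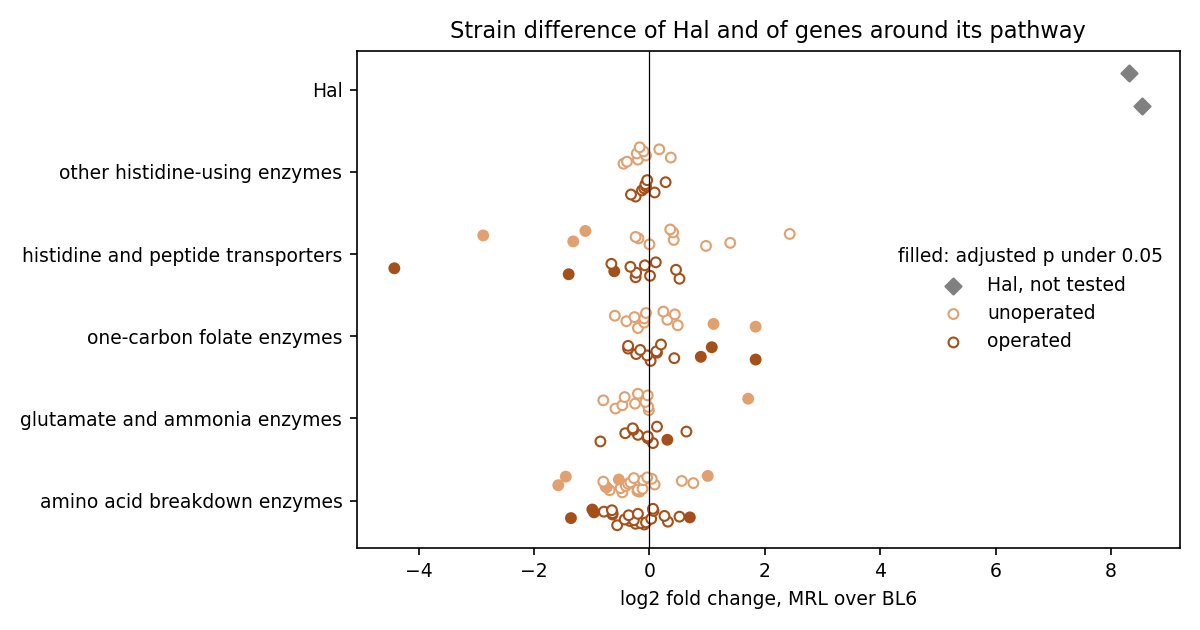
Log2 fold change of MRL over BL6 for Hal (grey diamonds, not tested) and for each gene of the 5 lists, 1 point per gene, unoperated and operated; filled circles were called at an adjusted p under 0.05. Every list gene lies between -4.42 (Slc15a2, operated) and 2.43 (Slc15a3, unoperated, not called), while Hal stands at 8.31 and 8.54.

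With surgery in MRL, 8 of the 69 list genes rose and 27 fell (50.7%, against 45.0% of all genes, 22.3% higher and 22.7% lower). Their median log2 fold change was -0.29 against 0.01 over all genes. Without operated MRL replicate 3 these counts were 4 and 17. Calls over all genes fell too, to 1740 higher and 1750 lower in place of 2609 and 2663. Hal thus rose in a set of amino acid genes of which more were called lower than higher. In BL6, 18 rose and 32 fell (72.5%, against 67.9% of all genes, 35.1% higher and 32.8% lower), with a median of -0.35 against 0.04.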

How the data were processed

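The deposited count table gives whole-number counts per gene, 1 column per sample, with no normalization, as read from its values. FastQC, STAR and edgeR and the build mm10 are named, without role, per the submitters' processing notes; the counting program, the use of strand and the rule that left low genes out are not given in the sources used here. The authors' deposited table adds an average log2 CPM and, per the file headers, a log2 fold change, p-value and false discovery rate for each comparison.

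From the counts, R 4.3.3 and edgeR 4.0.16 were used. TMM factors scaled the 16 libraries, filterByExpr (minimum count 10) kept 11709 of 11710 genes, and all samples entered one quasi-likelihood fit with a coefficient for each group. Genes were called at a Benjamini-Hochberg adjusted p under 0.05 over all genes tested, and SEs are the log2 fold change divided by the root of F. Log2 CPM used a prior count of 2. The fit was tested on simulated data. Alternatives used RLE factors, total counts, no filter, DESeq2 1.42.0, voom (limma 3.58.1), the compared groups alone, a replicate block and the loss of each sample. Exact tests used scipy 1.17.1, and transcripts were aligned with blastn 2.17.0.

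Hal, the gene lists and the naming rule were chosen with earlier results of these data known. Named are Hal, its 20 nearest tested genes, the 5 nearest in pattern, the 3 above and 3 below it in rank, and up to 4 called members per list and comparison with the largest changes. The text narrows the last to strain differences and to the lists on histidine use and transport with surgery in MRL, a narrowing made after values were seen. For the genes named there, the BL6 surgery values are given beside them. Of the 11710 gene IDs, 11708 were in GENCODE M21. The list gene Mmut was matched by its older name. Within that narrowing, the values of 1 list gene are not reported here.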

Additional observations from a re-analysis of the deposited data

Results flagged for a closer look

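Groups of 4 were examined for a sample far from the other 3, in 45 genes and 180 gene groups, and 8 had one; chance alone gives about 1 in 20. No Hal group was among them. In operated MRL, replicate 4 was high for Carnmt1 (6.50 CPM, the others 2.41 to 3.09), Aldh1l2 (8.58 CPM, the others 5.27 to 5.68) and Mtr, methionine synthase (29.4 CPM, the others 19.1 to 20). In unoperated MRL, replicate 1 was high for Slc7a7, an amino acid exchanger (5.14 CPM, the others 1.46 to 1.54), and for Slc15a3, a lysosomal peptide carrier (11 CPM, the others 0.452 to 0.894). In unoperated BL6, replicate 1 was low for Shmt1 (8.08 CPM, the others 12.3 to 13.0). In operated BL6, replicate 2 was high for Slc15a2 (53.7 CPM, the others 9.59 to 15.6) and replicate 4 for Fah, the last enzyme of tyrosine breakdown (17.1 CPM, the others 5.42 to 7.34).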

How the results depend on the processing

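The rise of Hal with surgery in MRL kept its direction and its call under every alternative run, from 0.55 to 0.87 without single samples and 0.69 (edgeR adjusted p 0.0125) with the replicate block. Replicate numbers are not stated to pair samples: deviations of same-numbered unoperated and operated MRL samples correlated at -0.245 to 0.267, 4 of 8 MRL samples correlated best with their own number, and the block moved no count of all genes called by over 1.5 times (5197, 7930, 1146 and 1354 against 5272, 7950, 1216 and 1507 for surgery in MRL, surgery in BL6, and MRL against BL6 unoperated and operated). In that order, leaving out single samples gave 3490 to 6145, 7189 to 8177, 821 to 1102 and 1030 to 1842 genes; the 3490 came without operated MRL replicate 3. Fitting only the groups compared gave 2438 genes unoperated and 575 operated between the strains. Over all genes, DESeq2 called 1666 unoperated and 1932 operated, and total counts 742 higher with 313 lower unoperated and 994 with 383 operated, against 588 with 628 and 890 with 617; it also moved the median gene by 0.147 between unoperated strains and by 0.177 with surgery in BL6. Of 75 gene results, 50 kept their direction and side of the threshold throughout, 23 lost a call under at least 1 alternative, 1 moved in size (the operated strain ratio of Hal, 9.11 without operated BL6 replicate 4), and 1 reversed, Snrpf between unoperated strains, at -0.00 without unoperated MRL replicate 1 and up to 0.27 without other single samples. At these depths 3 counts limit Hal in BL6. The causes of these moves were not tested.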
